A study of Mus musculus with 8 samples.

Results

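The genes described here are 8 markers of blood-borne myeloid cells, chosen by symbol from the 54752 genes of the count tables. They comprise 6 monocyte genes (Lyz2, Ly6c2, Plac8, Chil3, S100a4 and S100a6) and 2 neutrophil genes (S100a8 and S100a9). The 2 groups of genes are described separately, each in sham mice against mice with bilateral carotid artery stenosis (BCAS).

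RNA was sequenced from the right cerebral cortex of 8 adult male wild-type C57BL/6 mice (C57BL/6 J in the methods), 1 mouse per library, 3 weeks after surgery. In the 4 BCAS mice a microcoil had been wound around each common carotid artery, the narrower coil on the right side, so that blood flow to the brain fell over the long term. The 4 sham mice had the same operation without coils, and no other genotype, treatment or time was included. The question was which genes of the cortex on the side of the narrower coil differ in level after lasting hypoperfusion. A flushing of the blood vessels before the cortex was taken is not given in the sources used here, so blood cells within vessels may be part of the tissue measured. In whole cortex, a change in the number of cells of a type and a change in RNA per cell cannot be told apart.

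Monocytes and neutrophils are white cells made in the bone marrow. Both are scarce in the healthy brain and can leave the blood at sites of injury. Mouse monocytes of the inflammatory kind carry Ly6C on their surface and use the chemokine receptor CCR2 to enter tissue, where they can turn into macrophages. Neutrophils carry Ly6G, store proteases and antimicrobial proteins in granules, and hold S100A8 and S100A9, which form the calprotectin complex, in large amounts. Few of these genes belong to 1 cell type only. Lyz2 is also read in macrophages and activated microglia, S100a6 in astrocytes and fibroblasts, S100a4 in fibroblasts and lymphocytes, and S100a8 and S100a9 in monocytes.

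The libraries held between 16759364 and 21794435 counted read pairs, and 3 counts corresponded to 0.131 to 0.187 CPM, the unit of all levels below (counts scaled to library size with TMM factors). A gene was called when its absolute log2 fold change was above 1 and its adjusted p was under 0.05 in edgeR's quasi-likelihood test, fitted over the 17136 genes that passed a filter on low counts. By these rules 2097 genes (12.2%) were called, 1877 of them (11%) higher in BCAS and 220 (1.28%) lower. Neurons in the tissue were plain from the list of cortical neuron genes, which summed to 2510 to 2960 CPM in sham mice. No other brain region was compared. Sham mouse 3 stood apart in choroid plexus genes, with 12169 counts of Ttr, the thyroxine carrier made there, against 128 to 548 in the other sham mice.

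Of the 8 marker genes, 3 passed the filter, all of them monocyte genes, and each of these 3 was called higher in BCAS, beside 11% of all tested genes. Ly6c2 passed only through its BCAS libraries, so this count does not stand as support. With a fit that kept every gene with at least 1 count, 7 of the 8 were called higher (5 of 6 monocyte genes and both neutrophil genes), where 6.75% of the 32537 genes fitted were. In that fit the median log2 fold change was 5.36 over the monocyte genes and 3.56 over the neutrophil genes, against 0.0514 over all genes fitted. The exception was S100a4, which was hardly counted in any mouse. The lowest BCAS mouse lay above the highest sham mouse for 6 of the 8 genes, beside 11.1% of all genes with a count.

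**Figure D1:**
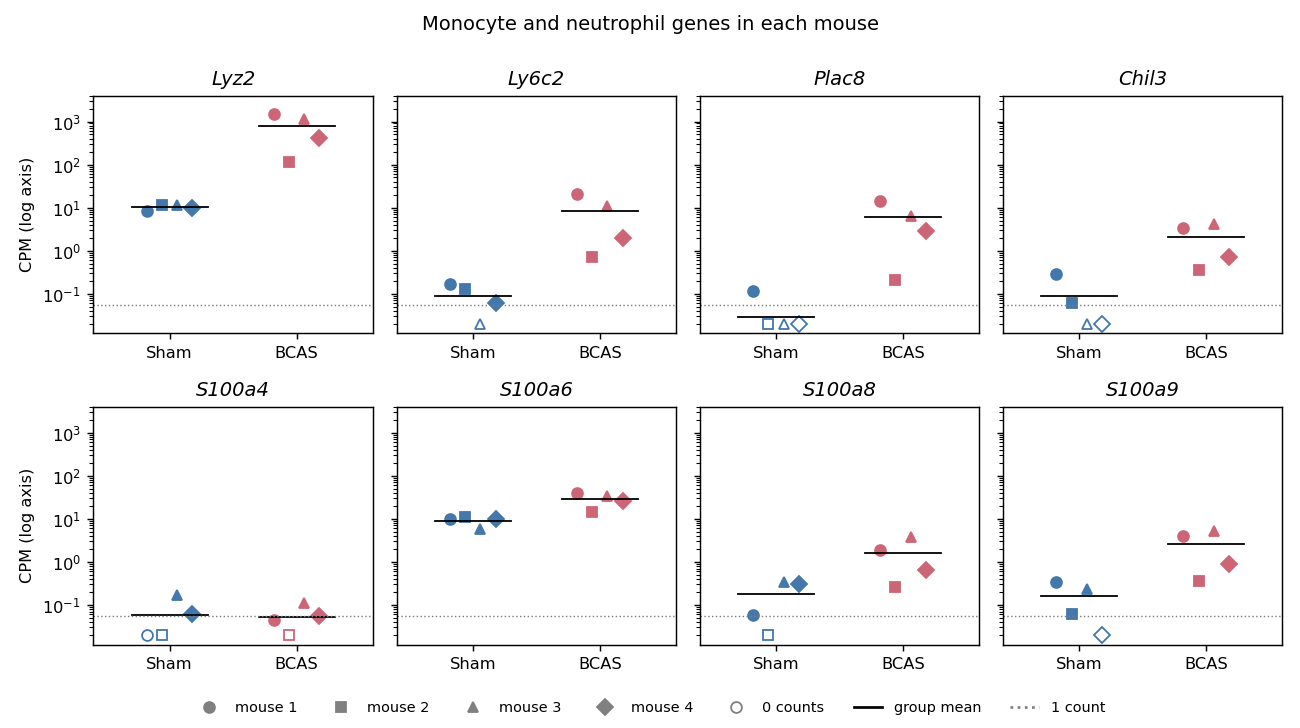
Level of the 8 genes in each mouse, in TMM-normalised CPM on a log axis, with a marker shape per mouse, open markers for 0 counts, black lines for the group mean (n = 4) and a dotted line for the level of 1 count. Lyz2 lay between 8.34 and 11.7 CPM in sham mice and between 116 and 1500 CPM in BCAS mice, S100a4 stayed at 3 counts or fewer in both groups, and S100a8 overlapped between the groups.

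Lyz2 encodes lysozyme, the enzyme that cleaves bacterial cell walls. It had the highest mean level of the 8 genes per kilobase of annotated exon in both groups. The gene (ENSMUSG00000069516.8) lies on the minus strand at chr10:117277331-117282321 in mm10. Its level was 8.34, 11.7, 11.6 and 9.58 CPM across sham mice 1 to 4, and 1500, 116, 1140 and 406 CPM across BCAS mice 1 to 4. All BCAS mice were above all sham mice, and BCAS mouse 2 was the lowest of its group by a wide margin. The group means were 10.3 ± 1.64 CPM in sham and 789 ± 637 CPM in BCAS mice (SD, n = 4 each). The log2 fold change was 6.26 (SE 0.78, edgeR adjusted p = 0.00203). Leaving out each mouse in turn gave 5.76 (without BCAS mouse 1) to 6.63 (without BCAS mouse 2).

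The sham mice thus differed little in Lyz2 while the BCAS mice covered a 12.8-fold range, and BCAS mouse 1 alone gave 52.5% of all Lyz2 counts of its group. Lyz2 has a near-identical neighbour, Lyz1, the lysozyme of the intestine. The first 240 coding bases of both are shown, because a read that matches both genes equally cannot be placed. They were taken from GENCODE vM21 transcripts, run 5′ to 3′, and carry capitals at the 17 aligned bases that differ.
Lyz2: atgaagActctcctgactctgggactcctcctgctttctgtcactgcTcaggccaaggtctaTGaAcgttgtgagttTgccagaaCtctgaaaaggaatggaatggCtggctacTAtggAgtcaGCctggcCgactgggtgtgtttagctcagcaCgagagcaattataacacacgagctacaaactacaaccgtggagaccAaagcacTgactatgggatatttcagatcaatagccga
Lyz1: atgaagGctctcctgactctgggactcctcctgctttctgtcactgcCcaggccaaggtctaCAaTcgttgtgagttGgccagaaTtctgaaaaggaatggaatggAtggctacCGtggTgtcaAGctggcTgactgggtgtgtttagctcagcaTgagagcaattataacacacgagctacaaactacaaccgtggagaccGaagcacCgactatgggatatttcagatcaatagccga
Over the whole coding sequence of 447 bases, 22 differ (95.1% identical), and the longest stretch without a difference is 118 bases. Of all windows of 100 bases in the Lyz2 transcript, 1.97% also occur in Lyz1. Lyz1 had 0, 0, 0 and 1 counts in sham mice, against 49, 7, 21 and 6 in BCAS mice. Per length, the Lyz2 level over all BCAS mice was 751 times that of Lyz1, so counts of Lyz1 could hardly change those of Lyz2.

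Ly6c2 encodes the Ly6C antigen by which inflammatory monocytes are recognised. The gene (ENSMUSG00000022584.14) lies on the minus strand at chr15:75108158-75111970. It had 3, 2, 0 and 1 counts across sham mice 1 to 4 and 464, 14, 202 and 37 counts across BCAS mice 1 to 4. The sham mice were at or under the level of 3 counts, BCAS mouse 1 was highest, and BCAS mouse 2 came closest to the sham mice. Mean levels were 0.0888 ± 0.0744 CPM in sham and 8.49 ± 9.1 CPM in BCAS mice (SD, n = 4 each). The log2 fold change was 6.48 (SE 1.27, edgeR adjusted p = 0.00839), a value that depends on the prior count because the sham counts are so few. Without BCAS mouse 1, which held 64.7% of the BCAS counts, the log2 fold change was 5.59 and the difference in means went from 8.4 to 4.49 CPM. On the log2(CPM + 1) scale, limma gave 2.47. The depth-adjusted ratio of the summed counts, 102, had a 95% interval of 46.7 to 280, which covers counting error only.

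Ly6c2 too has a close relative, Ly6c1, which brain endothelial cells express. The first 240 coding bases, with capitals at the 6 aligned bases that differ, show how little separates the reads of the 2 genes.
Ly6c2: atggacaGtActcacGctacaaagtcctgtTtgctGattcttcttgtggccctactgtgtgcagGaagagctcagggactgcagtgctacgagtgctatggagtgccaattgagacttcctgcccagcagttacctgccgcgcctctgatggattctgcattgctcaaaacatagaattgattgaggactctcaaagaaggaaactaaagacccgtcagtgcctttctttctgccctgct
Ly6c1: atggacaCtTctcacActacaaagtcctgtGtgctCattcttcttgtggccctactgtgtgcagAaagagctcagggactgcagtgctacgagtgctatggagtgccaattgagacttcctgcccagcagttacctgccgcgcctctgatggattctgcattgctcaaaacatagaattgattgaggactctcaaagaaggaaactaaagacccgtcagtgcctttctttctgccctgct
Over the whole coding sequence of 396 bases, 9 differ (97.7% identical), with a run of 188 bases in common, and 15.8% of the 100-base windows of the Ly6c2 transcript occur in Ly6c1. Ly6c1 was the more abundant gene in every mouse, with 383, 416, 291 and 395 counts in sham and 974, 427, 404 and 546 in BCAS mice. Its log2 fold change was 0.40 (SE 0.23, edgeR adjusted p = 0.203) and its groups overlapped. Per length, Ly6c2 stood at 0.292, 0.0201, 0.306 and 0.0415 times Ly6c1 across BCAS mice 1 to 4, and at no more than 0.00479 times in any sham mouse. The size of these ratios depends on the length used. For Ly6c2 it was the 2740 annotated exon bases, whereas its longest coding transcript has 822. The rise of Ly6c2 therefore went with no called change of Ly6c1, although single reads of the pair may be misplaced.

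Plac8 encodes a small cysteine-rich protein of white blood cells that is plentiful in monocytes. The gene (ENSMUSG00000029322.12) lies on the minus strand at chr5:100553725-100572245. It had 2 counts in sham mouse 1 and 0 in the other sham mice, against 323, 4, 121 and 52 counts across BCAS mice 1 to 4. BCAS mouse 2, with 0.206 CPM, was close to sham mouse 1, with 0.113 CPM, and the other BCAS mice were far above both. The difference in means between 0.0284 ± 0.0567 CPM in sham and 5.93 ± 6.06 CPM in BCAS mice (SD, n = 4 each) gave p = 0.0286 in an exact two-sided permutation test, the smallest p that 4 against 4 mice allow. Plac8 did not pass the filter. In the fit without a filter its log2 fold change was 7.35 (SE 1.27, edgeR adjusted p = 0.0022). Leaving out each mouse in turn gave 6.45 to 9.77 in the same fit, and the call was kept. With the filter applied anew, Plac8 was tested in 5 of these 8 fits and lost its call without sham mouse 1 (edgeR adjusted p = 0.0503). The difference in means went from 5.9 to 3.18 CPM without BCAS mouse 1. The depth-adjusted ratio of the summed counts was 214, with a counting interval of 58.9 to 1770.

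Chil3 encodes Ym1, a chitinase-like lectin secreted by myeloid cells. The gene (ENSMUSG00000040809.10) lies on the minus strand at chr3:106147554-106167564. Counts were 5, 1, 0 and 0 across sham mice 1 to 4 and 75, 7, 76 and 13 across BCAS mice 1 to 4. BCAS mice 1 and 3 were alike, BCAS mouse 2 was within reach of sham mouse 1, and the groups did not overlap. Means were 0.0865 ± 0.135 CPM in sham and 2.11 ± 1.86 CPM in BCAS mice (SD, n = 4 each, p = 0.0286 by an exact two-sided permutation test). The log2 fold change without a filter was 4.47 (SE 0.98, edgeR adjusted p = 0.00888). It was 3.94 to 6.30, and the call was kept, when each mouse was left out of that fit in turn. With the filter applied anew, the call was lost without sham mouse 2 or 4 (edgeR adjusted p = 0.055 and 0.0526). Of its 100-base windows, 5.42% occur in the related genes Chil4 and Gm6522, and Chil4 had 1 count in all 8 libraries together.

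S100a6 encodes calcyclin, a small calcium-binding protein, and was, like Lyz2, already well measured in sham mice. The gene (ENSMUSG00000001025.8) lies on the plus strand at chr3:90612882-90624181. Its level was 9.87, 10.8, 5.65 and 9.7 CPM across sham mice 1 to 4, and 40.5, 14.2, 34.2 and 26.4 CPM across BCAS mice 1 to 4. Here BCAS mouse 2 was again the lowest of its group but the BCAS mice lay closer together than for any other monocyte gene that rose. The mean went from 9 ± 2.28 CPM in sham to 28.8 ± 11.3 CPM in BCAS mice (SD, n = 4 each). The log2 fold change was 1.68 (SE 0.32, edgeR adjusted p = 0.00757). It was 1.5 without sham mouse 3, the lowest of the sham mice.

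S100a4 encodes another member of the same calcium-binding family. The gene (ENSMUSG00000001020.8) lies on the plus strand at chr3:90603771-90606045. It had 0, 0, 3 and 1 counts in sham mice, against 1, 0, 2 and 1 counts in BCAS mice, with overlapping groups. The means, 0.0579 ± 0.0808 CPM in sham and 0.0515 ± 0.0443 CPM in BCAS mice (SD, n = 4 each), gave p = 0.8286 in an exact two-sided permutation test. The depth-adjusted ratio of the summed counts, 0.856, had a counting interval of 0.159 to 4.59, so a change within these bounds was not detectable at this depth. These counts are moreover an uncertain measure of S100a4. Of its 584 exon bases, 302 (51.7%) are shared with the annotated gene Gm42674 on the same strand, and the recorded counting call had no option to keep read pairs that fall on more than 1 gene. Gm42674 itself had at most 1 count in any library.

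S100a8 and S100a9 encode the subunits of calprotectin, which is bound by pattern recognition receptors such as TLR4. S100a8 (ENSMUSG00000056054.9) lies on the plus strand at chr3:90668978-90670035, and S100a9 (ENSMUSG00000056071.12) on the minus strand at chr3:90692632-90695721. S100a8 had 1, 0, 6 and 5 counts across sham mice 1 to 4 and 43, 5, 69 and 12 across BCAS mice 1 to 4. The groups overlapped, since BCAS mouse 2, with 0.257 CPM, lay below sham mice 3 and 4, with 0.343 and 0.301 CPM. The other 3 BCAS mice were above all sham mice. Means were 0.175 ± 0.172 CPM in sham and 1.63 ± 1.56 CPM in BCAS mice (SD, n = 4 each, p = 0.0857 by an exact two-sided permutation test).

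S100a9 had 6, 1, 4 and 0 counts across sham mice 1 to 4 and 92, 7, 98 and 16 across BCAS mice 1 to 4. Its groups did not overlap, but BCAS mouse 2, with 0.36 CPM, was almost level with sham mouse 1, with 0.34 CPM. The mean was 0.158 ± 0.155 CPM in sham and 2.64 ± 2.4 CPM in BCAS mice (SD, n = 4 each, p = 0.0286 by an exact two-sided permutation test). The depth-adjusted ratios of the summed counts were 16.6 for S100a9 (counting interval 9.07 to 33.7) and 9.2 for S100a8 (5.09 to 18.3). Per length, the level of S100a9 was 2.84, 1.89 and 1.77 times that of S100a8 in BCAS mice 1, 3 and 4. These lengths count all annotated exon bases, 694 for S100a8 and 522 for S100a9. The longest coding transcripts have 486 and 519 bases, by which the ratios would be smaller. BCAS mouse 2 (1.86) and the sham mice had at most 7 counts of either gene, too few for such a ratio, and in sham mouse 3 the order was the opposite (0.886).

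Neither neutrophil gene passed the filter. In the fit without a filter the log2 fold changes were 3.97 for S100a9 (SE 0.90, edgeR adjusted p = 0.0108) and 3.15 for S100a8 (SE 0.88, edgeR adjusted p = 0.0303). When each mouse was left out of that fit in turn, S100a9 kept its call, with log2 fold changes of 3.39 to 4.64. With the filter applied anew, it lost the call without sham mouse 2 or 4 (edgeR adjusted p = 0.0619 and 0.0556). S100a8 lost its call when 1 of sham mice 1, 2 and 4 was absent (adjusted p = 0.0929, 0.0797 and 0.0594) or BCAS mouse 3 (0.116), at log2 fold changes of 2.36 to 3.51. Without BCAS mouse 2 the edgeR values were 4.36 for S100a9 (adjusted p = 7.95e-05) and 3.53 for S100a8 (adjusted p = 0.000931). Without BCAS mouse 3 the differences in means went from 2.48 to 1.59 CPM for S100a9 and from 1.45 to 0.754 CPM for S100a8.

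**Figure D2:**
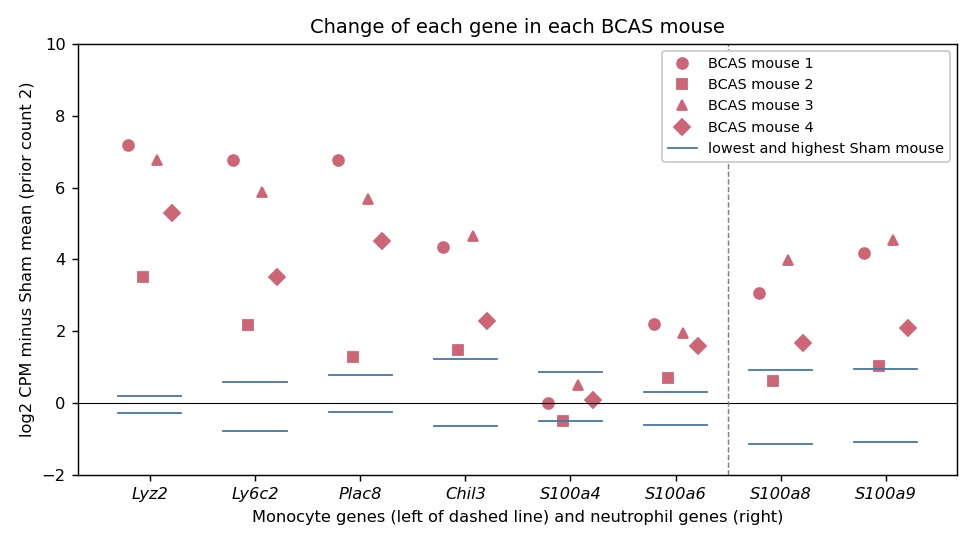
Log2 CPM (prior count 2) of each gene in each BCAS mouse minus the mean of the 4 sham mice, with blue lines at the lowest and highest sham mouse. BCAS mice 1 and 3 were high and BCAS mouse 2 low for the 7 genes other than S100a4, and for S100a8 the value of BCAS mouse 2 lay within the sham range.

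The BCAS mice kept a similar order across genes. On the log2 scale, relative to the sham mean, the monocyte genes averaged 4.54, 1.43, 4.24 and 2.88 across BCAS mice 1 to 4, and the neutrophil genes 3.61, 0.82, 4.27 and 1.87. BCAS mouse 1 was highest for Lyz2, Ly6c2, Plac8 and S100a6, whereas BCAS mouse 3 was highest for Chil3, S100a8 and S100a9. The ratio of BCAS mouse 3 to BCAS mouse 4 was 5.79 for Chil3, 5.7 for S100a8, 6.07 for S100a9 and 5.41 for Ly6c2, but 2.8 for Lyz2, 2.31 for Plac8 and 1.29 for S100a6. The same ratio was 0.891 for summed microglial genes, 2.52 for T and NK cell genes and 2.24 for genes of meningeal fibroblasts. A single pair of mice gives no test of these differences.

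Per kilobase of exon, the order of mean levels in sham mice was Lyz2 (7.83 CPM per kilobase), S100a6 (6.59), S100a9 (0.302), S100a8 (0.252), S100a4 (0.0991), Chil3 (0.053), Ly6c2 (0.0324) and Plac8 (0.0178). Lyz2 and S100a6 differed by less than their spread, and the 6 lower genes were at a few counts each and cannot be ordered. In BCAS mice Lyz2 stood at 599 CPM per kilobase and S100a6 at 21.1. S100a9 (5.05), Plac8 (3.72), Ly6c2 (3.1), S100a8 (2.35) and Chil3 (1.29) followed, and these 5 were not apart beyond the spread between mice. S100a4 was last at 0.0882. The order depends on the lengths used, which count all annotated exon bases. For S100a6 (1367), Ly6c2 (2740) and S100a8 (694) these are well above the longest coding transcript (731, 822 and 486 bases).

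The sequences ahead of the start are shown for Ly6c2, Plac8, S100a8 and S100a9, the genes in whose sequence a match to a myeloid motif was found. They come from RefSeq (GRCm38.p6), which held all 8 genes, and are cut to the part before the annotated transcript. Capitals mark 2 motifs on either strand, which do not overlap here, the PU box GAGGAA (or its reverse complement TTCCTC) and the C/EBP core TTGCNNAA. PU.1 and C/EBP proteins are the factors best known for myeloid genes.
Ly6c2, minus strand, chr15:75111971-75112187: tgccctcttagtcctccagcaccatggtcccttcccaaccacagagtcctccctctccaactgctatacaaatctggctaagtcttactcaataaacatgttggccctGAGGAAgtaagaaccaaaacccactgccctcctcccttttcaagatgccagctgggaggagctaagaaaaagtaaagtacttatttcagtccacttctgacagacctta
Plac8, minus strand, chr5:100572246-100572455: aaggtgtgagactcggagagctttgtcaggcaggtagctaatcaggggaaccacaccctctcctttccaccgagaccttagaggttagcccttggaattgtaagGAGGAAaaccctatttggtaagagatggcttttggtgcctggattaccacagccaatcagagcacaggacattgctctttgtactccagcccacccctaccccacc
S100a8, plus strand, chr3:90668821-90668977: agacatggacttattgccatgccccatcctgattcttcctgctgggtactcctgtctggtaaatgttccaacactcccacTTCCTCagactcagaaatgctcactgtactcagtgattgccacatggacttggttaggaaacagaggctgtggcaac
S100a9, minus strand, chr3:90695722-90695971: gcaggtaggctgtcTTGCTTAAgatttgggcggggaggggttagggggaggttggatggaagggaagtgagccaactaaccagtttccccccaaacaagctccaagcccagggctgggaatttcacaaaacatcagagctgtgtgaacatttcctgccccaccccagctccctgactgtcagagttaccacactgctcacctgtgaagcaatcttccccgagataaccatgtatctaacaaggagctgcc
Within the 250 bases before a RefSeq start, the PU box letters occurred for 3 of the 8 genes (Ly6c2, Plac8 and S100a8) and in 23.3% of 32817 promoters. The C/EBP core letters occurred for 2 genes (Plac8 and S100a9) and in 9.57% of promoters. The TATA box TATAAA, sought in the same way, occurred for 2 genes (S100a4 and S100a8) and in 12.4% of promoters. Some of these matches lie between the end of the stretch shown and the RefSeq start, or before another start of the same gene. Such matches are letters in a window and not sites of binding.

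Beyond the 8 genes, a list of 25 other monocyte genes was read in the same fit. Of its 16 tested genes, 12 were called higher, beside 11% of all tested genes, and the median log2 fold change was 2.81 against -0.00625 over all tested genes. As with Ly6c2, some of these genes (Lgals3, Ms4a6c, Spn and Mcemp1 among them) had at most 10 counts in any sham mouse. They passed the filter through their BCAS libraries, so the count is partly set by the filter. The same holds for some genes of the lists below, such as Lcn2 and Cd8a. It does not hold for the microglial identity and meningeal fibroblast genes, which were well counted in every sham mouse. Without a filter, 17 of the 25 were called higher, beside 6.75% of all genes fitted. Their summed level was 168 to 209 CPM in sham mice and 1150, 297, 825 and 558 CPM across BCAS mice 1 to 4. Ccr2, the chemokine receptor of inflammatory monocytes, had 7, 21, 15 and 6 counts in sham mice, against 922, 39, 446 and 123 in BCAS mice. Its log2 fold change was 4.65 (SE 0.94, edgeR adjusted p = 0.0091). BCAS mouse 2 was again nearest to the sham mice and the groups did not overlap.

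Fn1, which encodes fibronectin and is shared with vascular and connective tissue cells, rose by 1.76 on the log2 scale (SE 0.32, edgeR adjusted p = 0.00625). Itgam, the CD11b integrin of monocytes, neutrophils and microglia, rose by 3.19 (SE 0.40, edgeR adjusted p = 0.00203). Itga4, an integrin chain used for crossing the vessel wall, had overlapping groups and a log2 fold change of 0.75 (edgeR adjusted p = 0.171). Genes absent or near absent in sham mice included Ms4a4c, with 0, 1, 0 and 1 counts in sham and 160, 9, 77 and 27 counts in BCAS mice. Ms4a8a, Treml4, Cd300e and Adgre4 were also scarce in sham mice but were not called in the fit without a filter. Their edgeR adjusted p values were 0.825, 0.169, 0.187 and 0.0595. Lgals3, the galectin of activated macrophages, had a log2 fold change of 7.28 (SE 1.14, edgeR adjusted p = 0.00375).

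**Figure D3:**
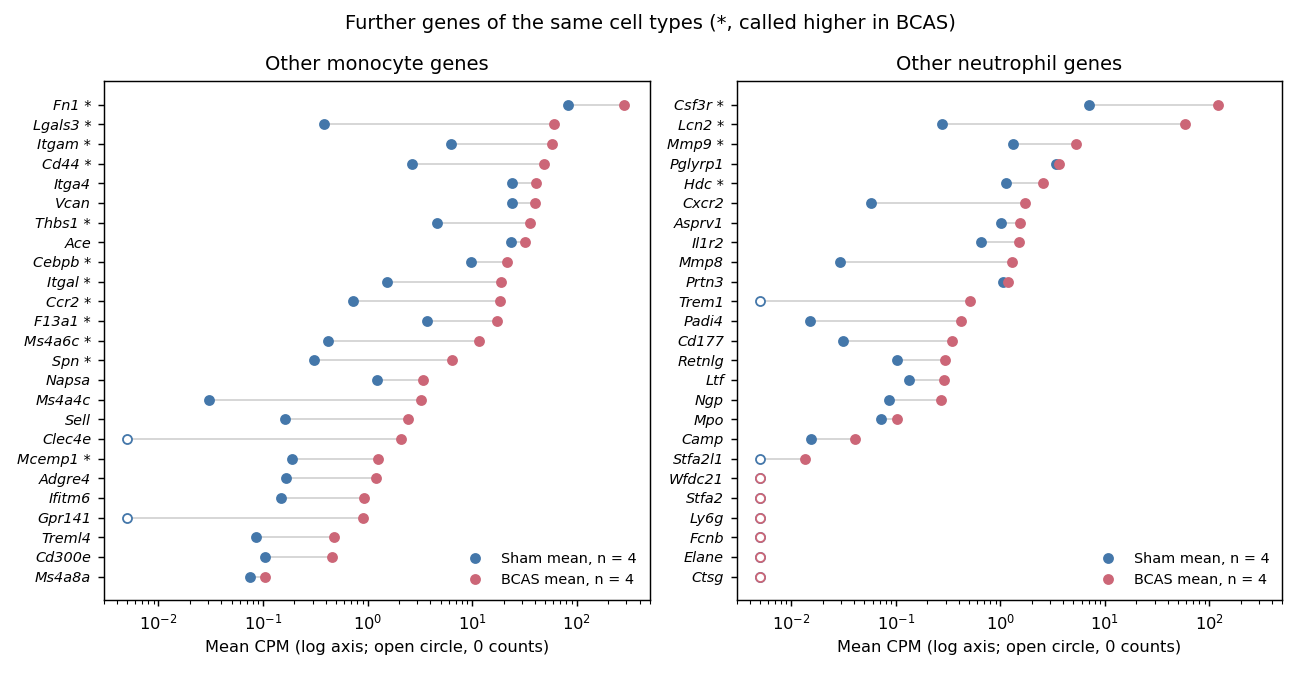
Mean CPM in sham (blue) and BCAS mice (red), n = 4 each, on a log axis, for 25 other monocyte genes and 25 other neutrophil genes. Open circles stand for 0 counts in the group and are drawn at the left edge, and stars mark genes called higher in BCAS. Lgals3, Cd44 and Ccr2 stand far apart between the groups, and 6 neutrophil genes have open circles in both.

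Of 25 other neutrophil genes, 6 had no count in any library, and 8, these 6 included, had at most 3 counts in every library. A total of 8 passed the filter, 4 of these were called higher, beside 11% of all tested genes, and the median log2 fold change of the 8 was 1.20. Without a filter, 7 of the 19 with a count were called higher, beside 6.75% of all genes fitted. Ly6g, the surface antigen that defines mouse neutrophils, and the granule or secreted genes Elane, Ctsg, Wfdc21, Stfa2 and Fcnb had 0 counts in all 8 libraries. This allows at most 0.187 CPM in any of them. The bound covers counted reads only, since stretches shared with other genes were not examined for these genes. The granule genes, which are read mainly in bone marrow precursors, stayed within a few counts for Camp (0, 1, 0 and 0 counts in sham, 0, 0, 0 and 3 in BCAS mice) and Ngp (4, 1, 1 and 0 in sham, 5, 5, 3 and 8 in BCAS mice). No difference in these 2 granule genes could be seen at this depth, and in the fit without a filter edgeR's adjusted p was 0.674 for Camp and 0.282 for Ngp.

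Other genes of the list were counted in some or all of the BCAS mice. Cxcr2, the chemokine receptor of neutrophils, had 2, 0, 0 and 2 counts in sham and 71, 0, 65 and 4 counts in BCAS mice. Mmp8, the neutrophil collagenase, had 0, 0, 1 and 1 counts in sham and 55, 0, 44 and 6 counts in BCAS mice. In both, BCAS mice 1 and 3 were high and BCAS mouse 2 had no count, as the order of S100a8 and S100a9 also ran. Trem1 had 0 counts in all sham mice and 22, 3, 12 and 5 counts in BCAS mice. Padi4 ran in another order, with 0, 0, 0 and 1 counts in sham and 13, 7, 3 and 11 counts in BCAS mice. Both were called higher in the fit without a filter (edgeR adjusted p = 0.0105 for Trem1 and 0.012 for Padi4). In the fit without a filter the log2 fold change was 4.70 for Cxcr2 (edgeR adjusted p = 0.0292) and 5.14 for Mmp8 (edgeR adjusted p = 0.0184). It was 1.46 for Retnlg (adjusted p = 0.33) and 3.27 for Cd177 (adjusted p = 0.0554), and neither was called.

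The 4 called genes of this list were Csf3r, Lcn2, Mmp9 and Hdc. Csf3r, the G-CSF receptor, which microglia also express, rose by 4.07 on the log2 scale (SE 0.40, edgeR adjusted p = 0.00146). Lcn2, a secreted iron-trapping protein also made by reactive astrocytes, rose by 7.68 (SE 1.40, edgeR adjusted p = 0.00642). Mmp9, a gelatinase, rose by 1.98 (SE 0.54, edgeR adjusted p = 0.0252), and Hdc, which makes histamine, by 1.18 (SE 0.40, edgeR adjusted p = 0.0488), a call that was lost in the fit without a filter (adjusted p = 0.0638). Pglyrp1, an antibacterial granule protein, had a log2 fold change of 0.11 (edgeR adjusted p = 0.776). The summed level of the list was 14 to 18.4 CPM in sham and 368, 66.6, 226 and 137 CPM across BCAS mice 1 to 4, and in the BCAS mice it was mostly Csf3r and Lcn2. The count of 4 fell to 2 when any 1 sham mouse or BCAS mouse 3 was left out.

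Among 13 other S100 genes, 8 were tested and 1 was called higher, a share close to the 11% of all tested genes. It was S100a11, with a log2 fold change of 2.45 (SE 0.39, edgeR adjusted p = 0.0041). The most abundant ones, S100b of astrocytes (0.75), S100a16 (0.58) and S100a1 (0.78), had smaller log2 fold changes, with edgeR adjusted p of 0.0101, 0.0146 and 0.00897, and were below the threshold on size. The median over the tested S100 genes was 0.73, and 2 were called without sham mouse 2 or without BCAS mouse 2.

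Of 9 receptors and partners of S100A8 and S100A9, 8 were tested and 6 were called higher, beside 11% of all tested genes. Tlr4 rose by 3.17 on the log2 scale (SE 0.43, edgeR adjusted p = 0.00252), its co-receptors Ly96 by 2.52 (SE 0.44, adjusted p = 0.00538) and Cd14 by 3.63 (SE 0.42, adjusted p = 0.00184). Cd33 (2.60), Anxa2 (2.62) and Cd36 (2.58) were also called. The groups overlapped for Cd36. Bsg and Alcam, the most abundant of the list, had log2 fold changes of 0.08 and 0.06 (edgeR adjusted p = 0.519 and 0.687). Ager, the receptor RAGE, was not tested, with 5, 2, 5 and 3 counts in sham and 37, 7, 21 and 9 in BCAS mice. In the fit without a filter it was called higher (log2 fold change 2, edgeR adjusted p = 0.0387).

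Among 12 relatives of lysozyme, the chitinase-like proteins and Ly6 antigens, 5 were tested and 3 were called higher, beside 11% of all tested genes. These were Ly6e (log2 fold change 1.31, edgeR adjusted p = 0.015), Ly6a (1.04, adjusted p = 0.0468) and Chil1 (1.84, adjusted p = 0.0327), and the groups of the latter 2 overlapped. The median of the 5 was 1.04. The count of 3 dropped to 1 in every fit that left out 1 mouse, except the one without BCAS mouse 2.

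Genes of other cell types moved over the same mice, and their part in the values above was not tested. Their counts of called genes, too, stand beside 11% of all tested genes and, without a filter, 6.75% of all genes fitted. All 9 microglial identity genes were called higher (median log2 fold change 2.48), with summed levels of 241 to 288 CPM in sham and 3020, 857, 1450 and 1630 CPM across BCAS mice 1 to 4. Cx3cr1, Fcrls and Olfml3, the most abundant of that list, had log2 fold changes of 2.78, 3.83 and 3.33. Of the border-associated macrophage genes, 5 of 7 tested were called higher (Mrc1, Lyve1, Ms4a7, Cbr2 and Stab1), or 8 genes without BCAS mouse 2. Lyve1 was not called in the fit without a filter (edgeR adjusted p = 0.0538 instead of 0.0441). The list summed to 38.2 to 43.2 CPM in sham and 70.8 to 334 CPM in BCAS mice. The dendritic cell genes Clec9a and Clec10a were called among 5 tested, with sums of 21 to 25 CPM in sham and 19.4 to 34.9 CPM in BCAS mice. The more abundant Zbtb46 and Flt3 had log2 fold changes of -0.43 and -0.14 (edgeR adjusted p = 0.0604 and 0.642). Neither of the calls of Clec9a and Clec10a held when sham mouse 1 or 2, or BCAS mouse 3, was left out, and the list had 1 call without sham mouse 3 or sham mouse 4. In the fit without a filter, 4 of the 7 dendritic cell genes were called higher.

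Lymphocyte genes were higher too. The 3 tested of 10 T and NK cell genes (Cd4, Lck and Cd8a) were all called, Cd8a having passed the filter through its BCAS libraries alone. Without a filter all 10 were called higher. In the fits with 1 mouse left out and the filter applied anew, the count was 2 without BCAS mouse 3, 5 to 7 without 1 of the sham mice and 9 without BCAS mouse 2. The list summed to 3.31 to 5.98 CPM in sham and 80.9, 8.64, 46.6 and 18.5 CPM across BCAS mice 1 to 4. Both tested B cell genes, Ighm and Cd79b, were called (the list had 1 call without sham mouse 1, 3 or 4 or BCAS mouse 1 or 3), with sums of 15.8 to 44 CPM in sham and 45 to 184 CPM in BCAS mice. Without a filter all 6 genes of the B cell list were called higher. BCAS mouse 2 was lowest in each of these lists.

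Of 6 meningeal fibroblast genes, 5 were called higher (Col1a1, Col1a2, Col3a1, Dcn and Lum), and their sum was 63.8 to 84.1 CPM in sham and 889, 152, 874 and 390 CPM across BCAS mice 1 to 4. For red cell genes, which tell of blood in the tissue, the median log2 fold change was 0.43, and the sums were of 59.2 to 80.6 CPM in sham and 94.4 to 123 CPM in BCAS mice. Hbb-bs, Hba-a1 and Hbb-bt had log2 fold changes of 0.58, 0.41 and 0.51. The medians were 0.31 for 6 endothelial genes (Flt1 0.17, Slco1a4 0.16 and Cldn5 0.39), -0.30 for the 2 tested platelet genes (Itga2b 0.25 and Gp5 -0.86) and 0.31 for 4 oligodendrocyte genes (Mbp 0.43, Mobp 0.47 and Mag 0.19). Among 6 astrocyte genes, Gfap (3.90) and Aqp4 (1.65) were called higher, and Slc1a2 and Slc1a3 stood at 0.02 and 0.49. Of 6 cortical neuron genes, Tbr1 was called lower (-1.10), Slc17a7, Gad1 and Rbfox3 stood at -0.87, -0.53 and -0.91, the median was -0.89, and the sum was 1030, 2180, 1650 and 1500 CPM across BCAS mice 1 to 4. Among 6 choroid plexus and ependymal genes, Foxj1 (1.23) was called higher, and Ttr (-2.78) and Kl (-0.71) were not called.

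**Figure D4:**
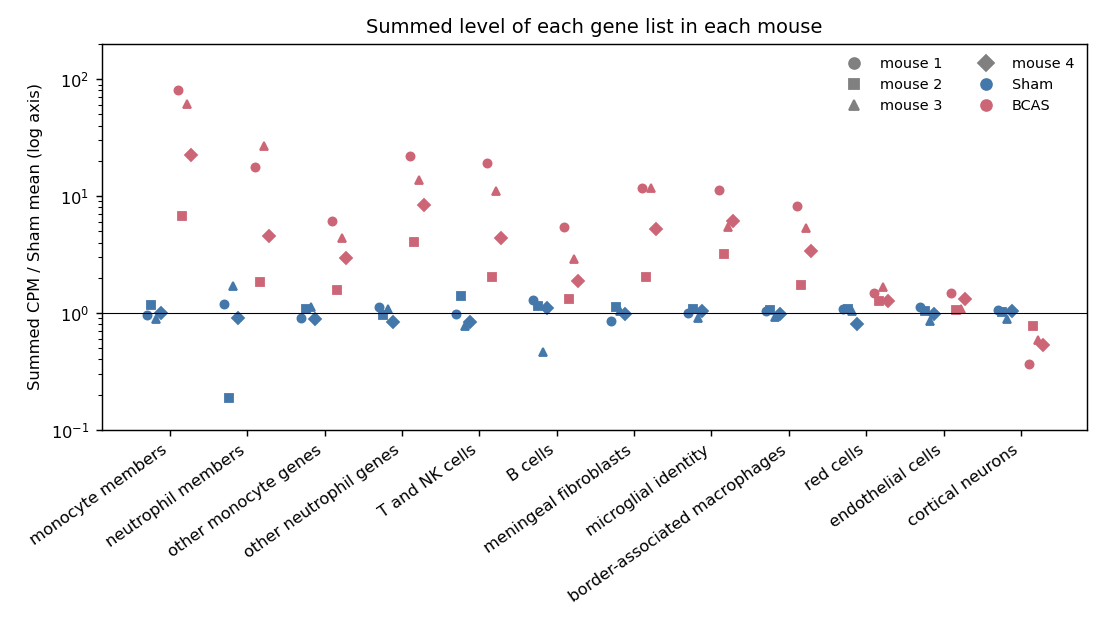
Summed CPM of the lists named on the axis, which leave out dendritic cells, in each mouse divided by the sham mean of that list, on a log axis, with a marker shape per mouse and blue for sham, red for BCAS. The monocyte genes, most of whose sum in the BCAS mice is Lyz2, reached the highest ratios, BCAS mouse 2 was the lowest BCAS mouse for each immune list drawn, and the neutrophil genes of sham mouse 2 rest on 1 count.

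Lyz2 made up most of the summed level of the monocyte genes in the BCAS mice and in sham mice 2 and 3. Without it, the other 5 summed to at most 11 CPM in sham mice and to 78.3, 15.5, 55.8 and 32 CPM across BCAS mice 1 to 4, which is 8.45, 1.67, 6.02 and 3.45 times the sham mean. In BCAS mouse 2 the red cell genes summed to 94.4 CPM against at most 80.6 in sham mice, and the 2 neutrophil genes, with few counts in all these mice, to 0.617 CPM against at most 0.571.

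Genes with the most similar profile over the 8 libraries were sought among 15864 tested genes, by the root-mean-square difference in log2 CPM after centring on the sham mean. Closest to Lyz2 were Cd300lf (0.46), an inhibitory receptor of myeloid cells, and Siglec1 (0.47), a macrophage lectin. Closest to Ly6c2 were Cd300lb (0.34) and Gimap3 (0.44), a lymphocyte GTPase gene. For Plac8 they were Spp1 (0.54), which encodes osteopontin, and Gimap3 (0.57). The profiles of Chil3 and S100a9 both lay nearest to that of Itgal, the LFA-1 integrin chain of white blood cells (0.50 and 0.42), followed by Tnfaip2 (0.51) for Chil3 and Spn (0.49) for S100a9. S100a8 had no neighbour closer than Ms4a4a (0.59) and Slc36a2 (0.59), and S100a6 followed Litaf (0.14) and Arhgap25 (0.15). S100a4, being near 0 throughout, matched genes without a change, Ebf2 (0.24) and Apold1 (0.25).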

How the data were processed

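Each of the 8 libraries came from the right cerebral cortex of 1 mouse. Per the methods, the authors used Trim Galore for trimming of the paired reads, HISAT2 for alignment to mm10, Samtools 1.9 for sorting and featureCounts 1.6.3 for counting. The deposited tables hold raw counts of read pairs per gene, and their headers name featureCounts 2.0.1 and GENCODE vM20, with no strand option. The tables were joined by gene ID, and symbols came from GENCODE vM21 (54723 of 54752 IDs matched).

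Counts were tested with edgeR 4.0.16 in R 4.3.3 (TMM, filterByExpr with minimum count 10 and minimum total 15, quasi-likelihood F-test, Benjamini-Hochberg adjustment over all 17136 tested genes). A call needed an absolute log2 fold change above 1 together with an adjusted p below 0.05. Standard errors were derived from the F statistic. Genes outside the filter were read from a fit of the 32537 genes with at least 1 count. Single levels were compared by exact permutation over 70 arrangements. Depth-adjusted ratios of summed counts carry 95% exact binomial intervals for counting error. No 2 libraries were duplicates, since every pair differed by more than sampling noise.

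Named genes are the 8 markers, the 3 most abundant tested genes of each list, genes where a count is 5 or fewer, and the 2 nearest profiles with a mean of at least 1 CPM. Ccr2, Ms4a4c, Lgals3, Ms4a6c, Spn, Mcemp1, Cxcr2, Mmp8, Retnlg, Cd177, the genes with few counts, Tlr4, Ly96, Cd14, Anxa2, Cd36, Ager and Chil1 were chosen after their values were seen. So were Padi4, Trem1, Ms4a8a, Treml4, Cd300e and Adgre4. The markers and lists were chosen with earlier results of these data known. In the microglial and oligodendrocyte lists, 1 gene each is not reported here and was left out of their counts and sums. The replicate numbers of sham and BCAS mice do not come from shared animals, and same-numbered libraries did not deviate together (correlations of -0.05, -0.10, -0.01 and 0). Alternatives covered the normalisation, the filter, DESeq2 1.42.0, limma 3.58.1 (voom and log2(CPM + 1)), robust estimation, a replicate block and each mouse left out. Procedures were tested on simulated data. Python 3.11.15 with matplotlib 3.10.9 made the figures.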

Additional observations from a re-analysis of the deposited data

Results flagged for a closer look

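Plac8 in sham mice was singled out because 1 library stood far from the rest of its group. Sham mouse 1 had 0.113 CPM, from 2 counts, and the other 3 sham mice had 0. The gap to the nearest mouse was therefore the whole range of the group (Dixon's ratio of 1, above its 95% critical value). With 3 mice at 0 this ratio is 1 whatever the count of the remaining mouse, so it does not measure how far that mouse stood apart. Of the 16 groups of 4 mice examined, chance would mark about 1 in 20 if values were normally distributed, which counts near 0 are not. With 2 counts the value is at the limit of what this depth resolves.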

How the results depend on the processing

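In the 20 alternatives to the reported fit, the log2 fold changes of Lyz2 (5.58 to 6.63) and S100a6 (1.49 to 1.92) stayed positive and past the thresholds, as did Ly6c2 in the 19 where it was tested (2.47 to 6.99). Without a filter, with at least 10 counts in 3 libraries, or with DESeq2 without a filter, 5 monocyte genes and 2 neutrophil genes were called, against 3 and 0. The latter 2 settings were chosen after seeing the data. Leaving out 1 mouse gave 3 to 5 monocyte genes, 0 to 2 neutrophil genes and 1644 to 2967 genes in all. The highest counts came without BCAS mouse 2 and, for 5 monocyte genes, also without sham mouse 3. In those fits the filter admitted more of the 8 genes. With at least 10 counts in every library, 2 monocyte genes were tested and called. With the replicate number as a block, 1809 genes were called instead of 2097, with 3 monocyte and 0 neutrophil genes. The numbers did not pair the samples, and the block changed no call of the 3 marker genes tested with it (Lyz2, Ly6c2 and S100a6). S100a4, at 0 to 3 counts, was the 1 gene of the 8 whose log2 fold change turned sign, to 1.11 without sham mouse 3 and 0.20 without BCAS mouse 2, both without a filter. For Plac8, Chil3, S100a8 and S100a9, with sham counts of 0 to 6, depth limits what can be said. Leaving out a mouse without a filter, also added after seeing the data, cost S100a8 its call in 4 of 8 fits and the other 3 genes none. With the filter applied anew, Plac8 was not called without sham mouse 1 (adjusted p = 0.0503), Chil3 and S100a9 without sham mouse 2 or 4 (0.0526 to 0.0619), and S100a8 without any 1 sham mouse (0.0558 to 0.0963), at log2 fold changes of 2.77 to 9.78.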
